A study of Rattus norvegicus with 12 samples.

Results

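The genes described here build the mitotic spindle, attach chromosomes to it and divide the cell. The list held 60 genes. A member was measured where a probe set of the rat array carried its symbol and no other, and where several did, the probe set with the highest mean over the 12 arrays stood for the gene. This gave 49 of the 60 members, among 14497 genes with such a probe set in all. All 49 were above the filter on dim probe sets, which left 10025 genes to be tested. No probe set was named for Anln, Cenpe, Cenpf, Ckap2, Espl1, Kif18a, Mki67, Ncapd2, Ncapg, Ncaph or Spc24, and these 11 members were not analysed here.

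The RNA came from cultures of ventricular cardiomyocytes of newborn Wistar rats, hybridised to 12 arrays in 4 groups of 3. Control cultures received no virus. The other groups received adenovirus particles carrying mef2Cγ+ (the γ+ group), mef2Cγ- (the γ- group) or mef2Cγ+-23/24 (the 23/24 group). MEF2C is a muscle transcription factor, and γ names a region that its splice forms carry or lack. The labels do not define 23/24, and they give no age in days, virus dose or time after infection. None of the 4 groups is labelled as given virus without a mef2C insert, so receiving virus and receiving a mef2C form cannot be told apart in a comparison with control. All groups were plated for 44 h in medium with 10% horse serum and 5% fetal bovine serum and then kept for 24 h without serum. Arrays are labelled as biological replicates, with nothing on whether these were separate cell isolations. The p-values therefore measure the spread between these samples, which may be technical.

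Values are deposited log2 intensities, so a difference of 1 is a doubling. Array medians ran from 5.33 to 5.53. In 21 pairs of arrays some probe sets had the same value to the last digit (27 to 111 per pair), and in the other 45 pairs none did. These pairs joined the arrays into 3 sets, which were the control with the 23/24 arrays, the γ+ arrays and the γ- arrays. The labels do not say whether the arrays were normalized in separate sets. If they were, that step and treatment cannot be told apart in any comparison here except that of the 23/24 group with control. The 10 cardiomyocyte markers listed were all above the filter and averaged 12.02 to 12.07 on the control arrays. The 10 fibroblast markers were also all above it, at 9.93 to 9.94, and so were all 6 smooth muscle and 7 endothelial markers. Of 8 macrophage or leukocyte markers 6 were above it, Ptprc and C1qa being below. The arrays read whole cultures, so more cells with a transcript and more transcript per cell cannot be told apart.

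Mitosis starts when CDK1, bound to a B-type cyclin, is switched on by CDC25 phosphatases. Polo and Aurora kinases then drive spindle building, kinetochores hold chromosomes to microtubules, and the spindle checkpoint holds back the anaphase-promoting complex until every chromosome is attached. Centralspindlin and the RhoA activator ECT2 place the cleavage furrow. Most transcripts of these proteins peak late in the cell cycle. Their promoters are known for CCAAT boxes, bound by NF-Y, and for the cell cycle genes homology region (CHR, with the letters TTTGAA or TTTAAA), bound by the MuvB complex with B-MYB, FOXM1 or repressive partners. Rat ventricular cardiomyocytes leave the cell cycle soon after birth, often after a last nuclear division without cytokinesis.

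The promoters of 5 central mitotic genes show this layout. Each sequence is the 150 bases before the RefSeq gene start in the GRCr8 assembly, read 5′ to 3′ on the gene's strand. Capitals mark CCAAT, or ATTGG where the box lies on the opposite strand, and the CHR letters TTTGAA or TTTAAA.
Cdk1, chr20:19265143-19265292, plus strand: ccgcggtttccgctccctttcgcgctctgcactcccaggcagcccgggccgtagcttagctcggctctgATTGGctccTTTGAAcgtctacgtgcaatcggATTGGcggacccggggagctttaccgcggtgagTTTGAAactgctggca
Ccnb1, chr2:33655226-33655375, minus strand: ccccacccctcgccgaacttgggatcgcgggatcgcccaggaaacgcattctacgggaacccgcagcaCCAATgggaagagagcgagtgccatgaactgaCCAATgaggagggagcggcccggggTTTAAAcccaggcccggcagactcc
Ccnb2, chr8:79981659-79981808, minus strand: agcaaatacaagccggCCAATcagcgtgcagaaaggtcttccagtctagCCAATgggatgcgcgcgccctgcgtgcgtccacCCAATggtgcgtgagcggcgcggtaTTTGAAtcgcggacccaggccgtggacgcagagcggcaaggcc
Cdc20, chr5:137255800-137255949, minus strand: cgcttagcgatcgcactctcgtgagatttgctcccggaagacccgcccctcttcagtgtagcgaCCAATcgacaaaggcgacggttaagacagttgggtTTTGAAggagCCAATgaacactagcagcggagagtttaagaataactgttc
Cdc25c, chr18:26630293-26630442, minus strand: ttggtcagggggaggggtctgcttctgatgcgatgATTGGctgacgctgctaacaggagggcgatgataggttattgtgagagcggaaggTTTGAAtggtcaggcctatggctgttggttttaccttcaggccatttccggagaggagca
Cdk1 held CCAAT boxes on the opposite strand starting 81 and 49 bases before the start and TTTGAA starting 72 and 16 bases before it. In Ccnb1 the boxes started at 82 and 50 bases and TTTAAA at 25 bases. Ccnb2 held 3 boxes, at 134, 101 and 68 bases, ahead of TTTGAA at 43 bases. Cdc20 held boxes at 86 and 41 bases with TTTGAA between them at 51 bases, and Cdc25c held a single box at 115 bases and TTTGAA at 60 bases.

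Promoters were found in the RefSeq table for 42 of the 49 measured members, and not for Aurkb, Ccna2, Foxm1, Incenp, Racgap1, Tpx2 or Ube2c. Over 300 bases, from 250 before to 50 after the start and on both strands, CCAAT was present in 31 of the 42 (73.8%), against 37.7% of all 27457 promoters in the table. TTTGAA was present in 28 (66.7%, against 18.1%) and TTTAAA, which reads the same on both strands, in 11 (26.2%, against 13.5%). At least 1 of these CHR forms was in 34 promoters (81.0%, against 27.9%), and CCAAT together with a CHR form in 25 (59.5%, against 11.1%). TTCCCGC, a form of the E2F site, was in 4 (9.5%, against 4.5%). A closer background is the 11946 promoters of genes with a single-gene probe set. There TTCCCGC was in 6.4%, CCAAT in 38.4%, a CHR form in 23.8% and CCAAT together with a CHR form in 9.8%. The letters searched are a description and do not show binding. Counting only the bases before the start lowered the share with TTTGAA to 45.2% (all promoters 16.0%), that with either CHR form to 64.3% (25.3%) and that with TTCCCGC to 2.4% (3.6%).

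The first comparison asked how these genes stood in cultures given mef2Cγ+ against untreated cultures. All 49 measured members were higher in the γ+ group, and on all 49 the 3 γ+ arrays lay above the 3 control arrays. The median difference was 1.21 (2.31-fold), with the middle of the list between 0.99 and 1.40, and the range ran from 0.44 for Bub3 (1.36-fold) to 2.65 for Psrc1 (6.27-fold). Over all 10025 genes the median difference was -0.07, with quartiles at -0.38 and 0.22. By limma with Benjamini-Hochberg adjustment over all genes, 49 of 49 members were called higher, against 26.2% of all genes, and 0 were called lower, against 38.7%. Adjusted p ran from 6.0e-14 (Psrc1) to 1.5e-04 (Cdca3). The 3 arrays of each group did not overlap, with γ+ higher, for 26.6% of all genes. A rise of at least 1 was called for 36 members (73.5%), against 3.10% of all genes.

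**Figure D1:**
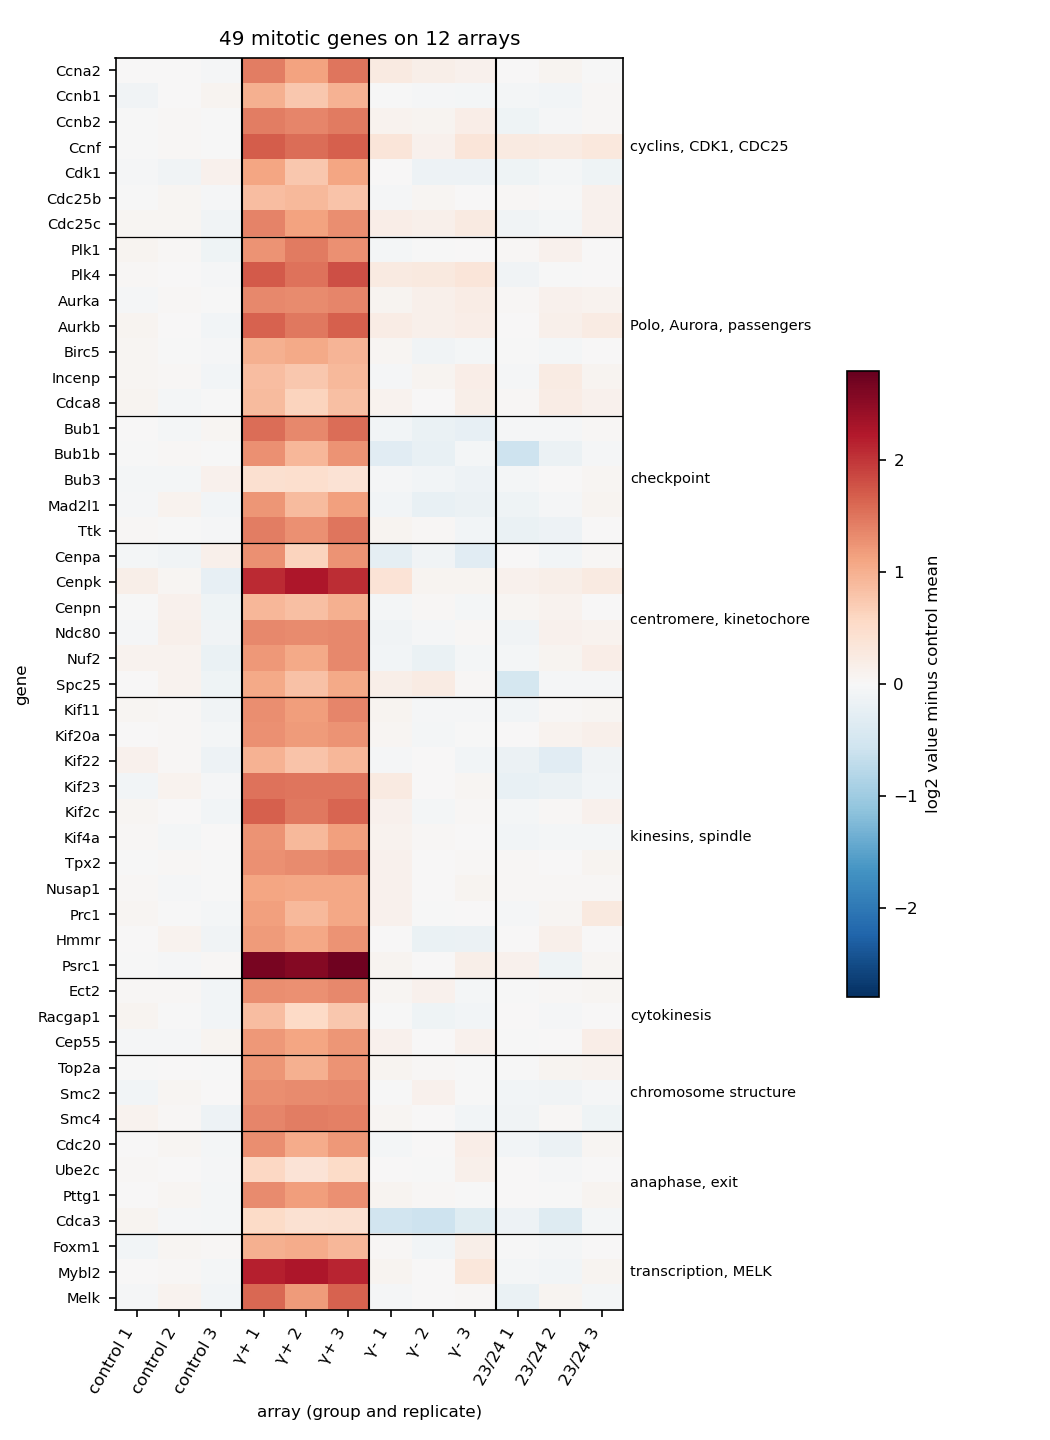
Heat map of the 49 measured members (rows, by role) on the 12 arrays (columns, by group), coloured by log2 intensity minus the mean of the 3 control arrays. The γ+ columns stand above control in every row. In the other columns the values below control include Cdca3 in γ-, at 6.50, 6.46 and 6.70 against a control mean of 7.03. On the first 23/24 array they include Bub1b, at 5.97 against 6.55, and Spc25, at 6.225 against 6.724.

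The mean over the 49 members was 7.56 to 7.62 on the control arrays and 8.88, 8.74 and 8.87 on γ+ arrays 1, 2 and 3. The second γ+ array was the lowest of its group for 39 members and for 5334 of all 10025 genes. Without any single γ+ or control array, all 49 members were still called higher.

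All 7 cyclin, CDK1 and CDC25 genes rose, by 0.85 to 1.65 (median 1.27). Cdk1, the kinase that triggers mitosis, read 7.39, 7.32 and 7.54 in control and 8.51, 8.17 and 8.51 in γ+, a rise of 0.98 ± 0.09 (SE, n = 3 per group, limma adjusted p = 5.6e-08). Ccnb1, cyclin B1, its main partner, read 8.92, 9.02 and 9.10 in control and 10.00, 9.76 and 9.98 in γ+, a rise of 0.90 ± 0.07. The groups did not overlap for either gene. The largest rise of the group was that of Ccnf, which encodes cyclin F, an F-box protein of a ubiquitin ligase that binds no CDK. It read 7.53, 7.56 and 7.52 in control and 9.23, 9.09 and 9.21 in γ+ (1.65 ± 0.07). The smallest was that of the CDK1-activating phosphatase gene Cdc25b, from 7.63, 7.70 and 7.62 to 8.52, 8.55 and 8.44 (0.85 ± 0.06). Between these lay Ccnb2 (1.41), the S-phase and mitotic cyclin gene Ccna2 (1.35) and Cdc25c (1.27).

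The 7 genes of the Polo and Aurora kinases and the chromosomal passenger complex rose by 0.78 to 1.68 (median 1.34). Plk4, the kinase of centriole duplication, read 7.32, 7.30 and 7.26 in control and 9.01, 8.81 and 9.10 in γ+ (1.68 ± 0.07, SE). Aurkb, the kinase of the passenger complex, read 8.21, 8.16 and 8.06 in control and 9.79, 9.62 and 9.81 in γ+ (1.59 ± 0.07). Its partner Cdca8, borealin, rose least, from 6.97, 6.83 and 6.87 to 7.77, 7.51 and 7.73 (0.78 ± 0.08). Even here the lowest γ+ array lay above the highest control array. The passenger genes Birc5, survivin, and Incenp rose by 1.004 and 0.847, and the spindle-pole kinase gene Aurka and Plk1 by 1.35 and 1.34.

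All 5 spindle checkpoint genes rose (median 1.16). The checkpoint kinase gene Bub1 read 7.46, 7.41 and 7.51 in control and 9.04, 8.82 and 9.04 in γ+ (1.50 ± 0.07, SE). Bub3, the adaptor that BUB1 binds, had the smallest rise of all members, from 6.74, 6.74 and 6.92 to 7.24, 7.28 and 7.21 (0.44 ± 0.07, limma adjusted p = 2.9e-05). Ttk, the kinase MPS1, rose by 1.40, Bub1b, which encodes BUBR1, by 1.16, and Mad2l1, the inhibitor of CDC20, by 1.10.

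The 6 centromere and kinetochore genes rose by 0.92 to 2.13 (median 1.13). Cenpk, of the inner kinetochore network, read 6.22, 6.12 and 5.84 in control and 8.14, 8.32 and 8.12 in γ+ (2.13 ± 0.11, SE), rank 24 from the highest among 10025 genes. Cenpn, of the same network, rose least of the group, from 7.13, 7.24 and 7.01 to 8.05, 7.97 and 8.13 (0.92 ± 0.07). The microtubule-binding NDC80 complex genes Ndc80, Nuf2 and Spc25 rose by 1.34, 1.21 and 0.98. Cenpa, the histone variant of centromeres, had the widest spread of the members in γ+ (SD 0.37), at 7.40, 6.75 and 7.38.

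The 11 genes of mitotic kinesins and spindle proteins rose by 0.91 to 2.65 (median 1.24). Psrc1, which encodes a microtubule-associated spindle protein, read 6.27, 6.26 and 6.32 in control and 8.95, 8.84 and 8.999 in γ+ (2.65 ± 0.07, SE), rank 4 from the highest among 10025 genes. At the low end stood Kif22, a kinesin that pushes chromosome arms, from 7.25, 7.17 and 6.99 to 8.12, 7.94 and 8.08 (0.91 ± 0.08). The microtubule-depolymerising kinesin gene Kif2c rose by 1.60 and Kif23, of centralspindlin, by 1.50. Tpx2, an activator of Aurora A, rose by 1.33, Kif11, the motor that separates spindle poles, by 1.28, and Kif20a, of the central spindle, by 1.24. Hmmr, Kif4a, Nusap1 and Prc1, which act on spindle microtubules, rose by 1.18, 1.10, 1.10 and 1.04.

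The 3 cytokinesis genes also rose. Ect2, the activator of RhoA at the furrow, read 9.25, 9.26 and 9.15 in control and 10.52, 10.49 and 10.56 in γ+ (1.30 ± 0.06, SE). Racgap1, the partner of KIF23 in centralspindlin, went from 7.32, 7.23 and 7.16 to 8.09, 7.79 and 7.99 (0.72 ± 0.08), and the midbody gene Cep55 rose by 1.19. Of the chromosome structure genes, Smc4, a condensin subunit, went from 8.93, 8.87 and 8.70 to 10.21, 10.28 and 10.24 (1.41 ± 0.07). Top2a, the topoisomerase that untangles sister chromatids, went from 9.39, 9.41 and 9.38 to 10.64, 10.39 and 10.65 (1.16 ± 0.06), and the condensin gene Smc2 rose by 1.32.

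The 4 genes listed under anaphase and mitotic exit had the lowest median of the role groups, 0.84. Pttg1, securin, which holds back the cohesin-cutting enzyme separase, went from 8.69, 8.74 and 8.62 to 10.01, 9.85 and 9.96 (1.26 ± 0.06, SE). Cdc20, the activator of the anaphase-promoting complex, rose by 1.18, but Ube2c, the ubiquitin-conjugating enzyme of that complex, by 0.49. Cdca3 was listed in this group although it encodes an F-box-like protein of mitotic entry, and its small rise counts in the group median. It went from 7.12, 7.01 and 6.97 to 7.57, 7.46 and 7.48 (0.47 ± 0.09). Bub3, Cdca3 and Ube2c were the 3 members with a rise under 0.7.

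The transcription regulators that act on such promoters rose too. Mybl2, B-MYB, read 7.66, 7.69 and 7.59 in control and 9.83, 9.91 and 9.78 in γ+ (2.19 ± 0.08, SE), rank 20 from the highest among 10025 genes. Foxm1 went from 7.69, 7.82 and 7.81 to 8.77, 8.81 and 8.70 (0.99 ± 0.07), and the kinase gene Melk rose by 1.48. For both regulators the γ+ arrays lay clear of control. The 34 members with a CHR form in the promoter had a median rise of 1.23 (0.78 to 1.68) and the 8 without had 1.20 (0.44 to 2.65). The 8 included Psrc1, Mybl2 and Cenpk, which rose most, and Bub3 and Cdca3, which rose least.

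**Figure D2:**
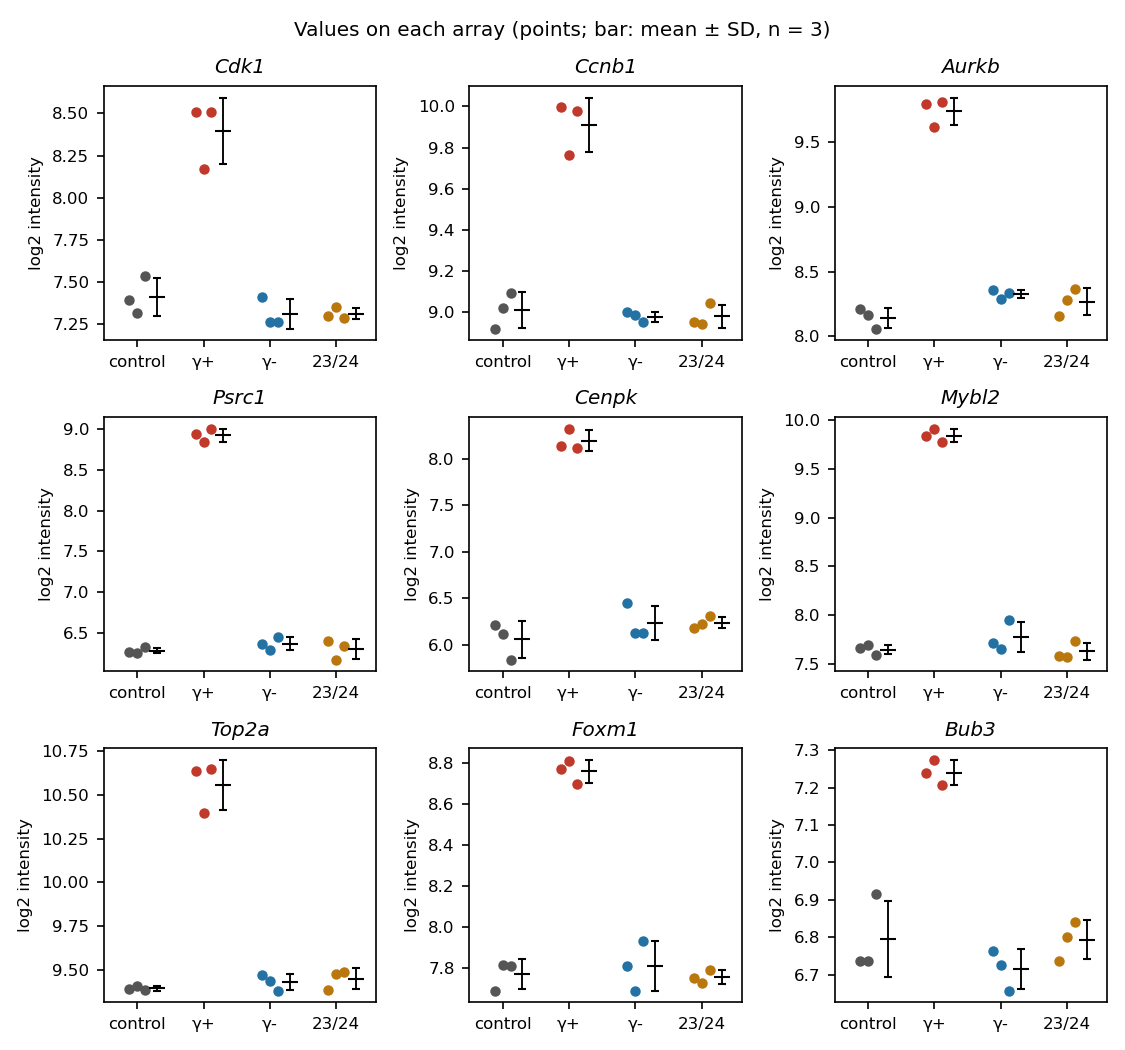
Log2 intensity on each array (points) with the mean ± SD of 3 arrays (bars) for Cdk1, Ccnb1, Aurkb, Psrc1, Cenpk, Mybl2, Top2a, Foxm1 and Bub3, by group. In each of these panels the 3 γ+ arrays lie above the 9 others.

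The same members were compared with the cultures given the other mef2C forms. These comparisons use the same γ+ arrays as the one with control, so they are not independent of it. Against the γ- group, all 49 members were called higher by limma, against 26.7% of all genes (37.5% were called lower), with a median difference of 1.24 and a range of 0.44 to 2.56. A rise of at least 1 was called for 37 members (75.5%), against 2.94% of all genes. Against the 23/24 group, all 49 were called higher, against 28.0% of all genes (37.9% lower), with a median of 1.24 and a range of 0.45 to 2.63. Here 39 members (79.6%) rose by at least 1, against 3.32%. Psrc1 was the highest member in both, at 2.56 and 2.63. Cdca3 differed by 0.95 against γ- and 0.66 against 23/24, beside 0.47 against control.

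**Figure D3:**
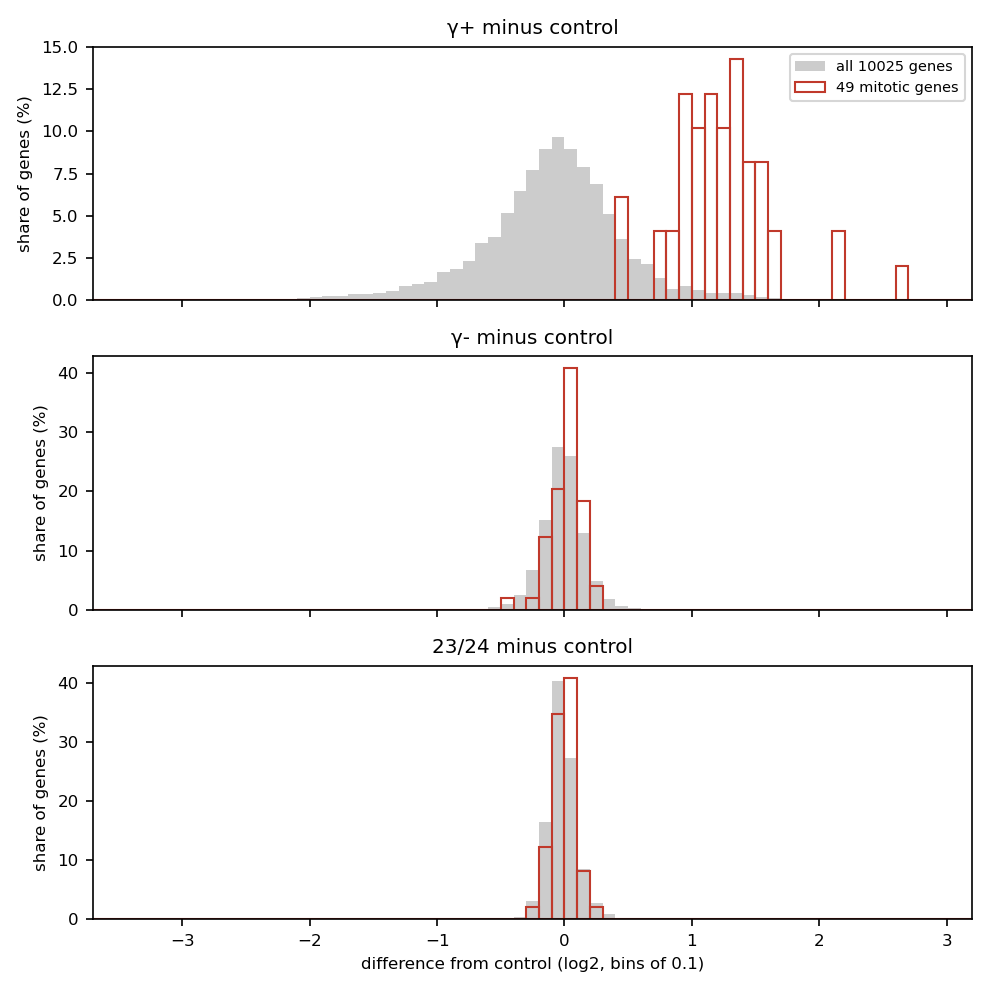
Histograms of the log2 difference from control of all 10025 genes tested and of the 49 members, for the γ+, γ- and 23/24 groups. In the γ+ group all members lie above 0.4 while the median of all genes is -0.07, and in the other groups the members run from -0.48 to 0.29 (γ-) and from -0.26 to 0.26 (23/24).

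The next comparison set cultures given mef2Cγ-, the form without the γ region, against untreated cultures. Against control the members' median difference was 0.03, with a range of -0.48 to 0.29. By limma 2 members were called higher, against 3.06% of all genes, and 1 was called lower, against 3.88%. At an unadjusted p under 0.05 there were 6 higher and 2 lower of 49, beside 22.8% of all genes in either direction. The arrays did not overlap for 7 members with γ- higher (14.4% of all genes) and 5 with γ- lower (19.0%). The shares of members at these thresholds are near or below those of all genes.

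Cdca3 was the member that fell in γ-. It read 7.12, 7.01 and 6.97 in control and 6.50, 6.46 and 6.70 in γ-, a difference of -0.48 ± 0.09 (SE, limma adjusted p = 0.00450). All γ- arrays lay below all control arrays, while the γ+ arrays lay above them. Plk4 read 7.54, 7.57 and 7.64 in γ- against 7.32, 7.30 and 7.26 in control (0.29 ± 0.07, limma adjusted p = 0.0255). Ccnf read 7.87, 7.65 and 7.88 against 7.53, 7.56 and 7.52 (0.26 ± 0.07, limma adjusted p = 0.0300). The call of Cdca3 held without any single array. That of Plk4 was lost without each of the 6 arrays in turn (adjusted p 0.0590 to 0.101), and that of Ccnf without 5 of the 6 (up to 0.123) and under median centring. The rises of Plk4 and Ccnf in γ+ were 1.68 and 1.65.

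Against control, the 23/24 group had no called member. The members' median difference was 0.004, with a range of -0.26 to 0.26, and 25 were above 0 and 24 below. By limma 0 of 49 were called higher or lower, and 0.00% of all genes in either direction. At an unadjusted p under 0.05 there were 1 higher, Ccnf, and 2 lower, Kif22 and Cdca3, of 49, while 899 of all 10025 genes passed in either direction. Limma with array weights called Ccnf higher and Kif22 lower. Of the 49 intervals (95%, limma), 48 lay inside -0.5 to 0.5 and 46 included 0. The lowest bound was -0.52 (Bub1b) and the highest 0.40 (Cenpk). The arrays did not overlap for 1 member with 23/24 higher (5.70% of all genes) and for 2 with 23/24 lower (12.2%).

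Ccnf read 7.78, 7.76 and 7.83 in 23/24, above all 3 control arrays (0.26 ± 0.07, SE, limma adjusted p = 0.293). Kif22 read 6.98, 6.82 and 7.03, overlapping control (-0.20 ± 0.08). Cdca3 read 6.88, 6.67 and 6.99 and also overlapped control (-0.18 ± 0.09).

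Between the γ- and 23/24 groups the members' median difference was 0.009. By limma 2 members were called higher in γ-, Plk4 (0.32 ± 0.07, SE, adjusted p = 0.0136) and Kif23 (0.25 ± 0.07, adjusted p = 0.0423), against 4.16% of all genes. Plk4 read 7.19, 7.29 and 7.31 in 23/24. Kif23 read 7.77, 7.54 and 7.58 in γ- and 7.32, 7.37 and 7.46 in 23/24, without overlap. Only Cdca3 was called lower (-0.30 ± 0.09, adjusted p = 0.0447), against 3.94% of all genes, and its arrays overlapped. Without 1 array at a time Plk4 was called in 4 of 6 refits, Kif23 in 1 and Cdca3 in 2.

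**Figure D4:**
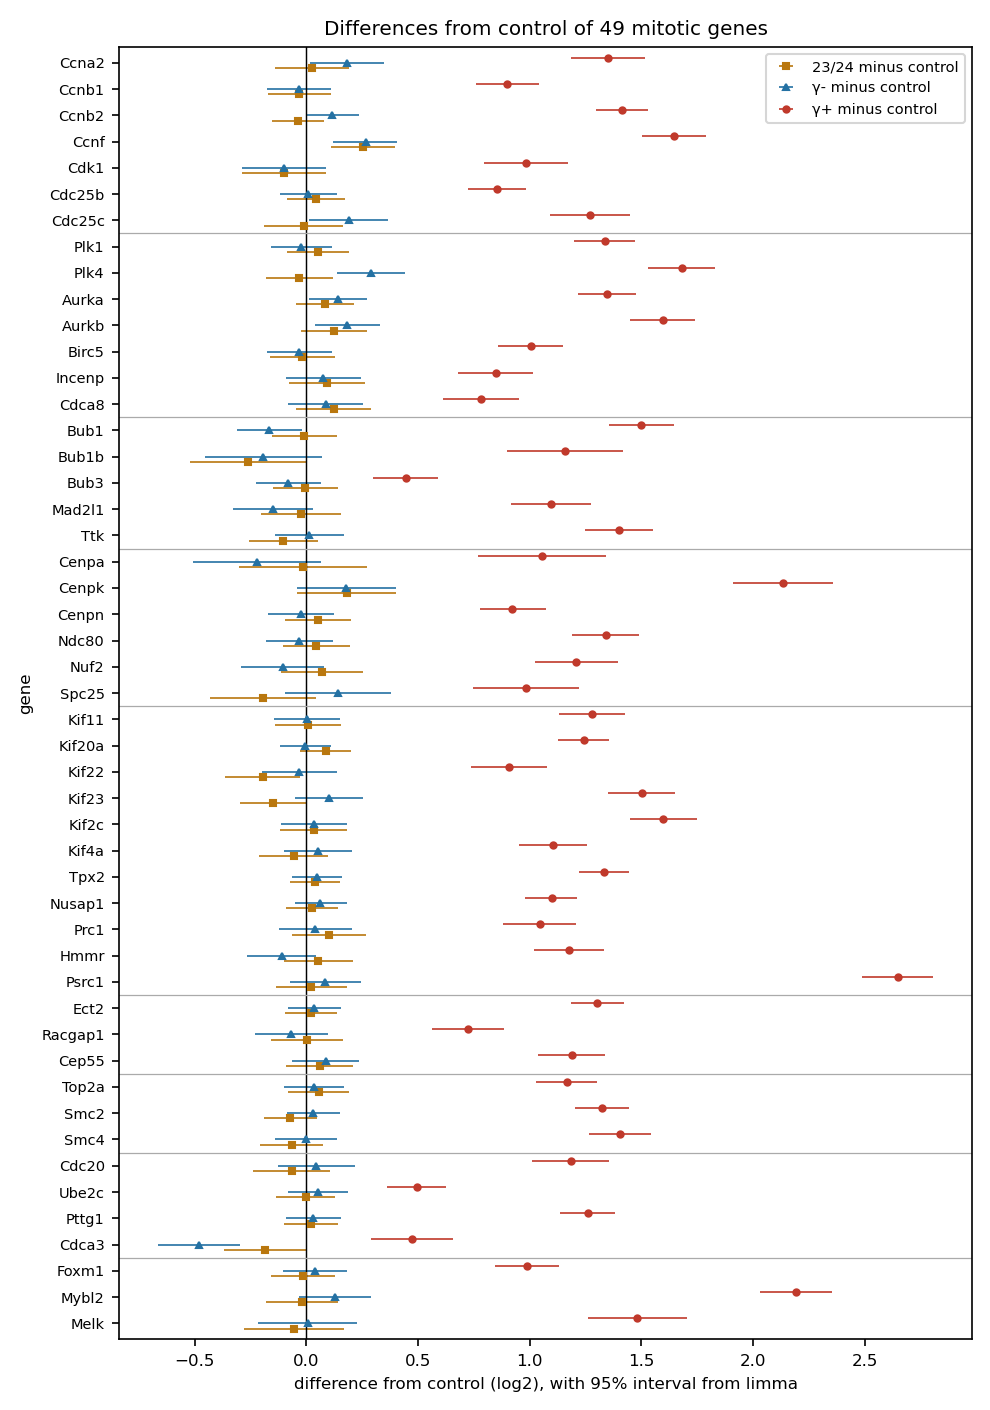
Difference from control in log2 (horizontal axis) of each of the 49 members (rows, by role) in the γ+, γ- and 23/24 groups, with 95% intervals from limma. All γ+ intervals lie above 0, and 46 of the 49 intervals of 23/24 include 0.

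**Figure D5:**
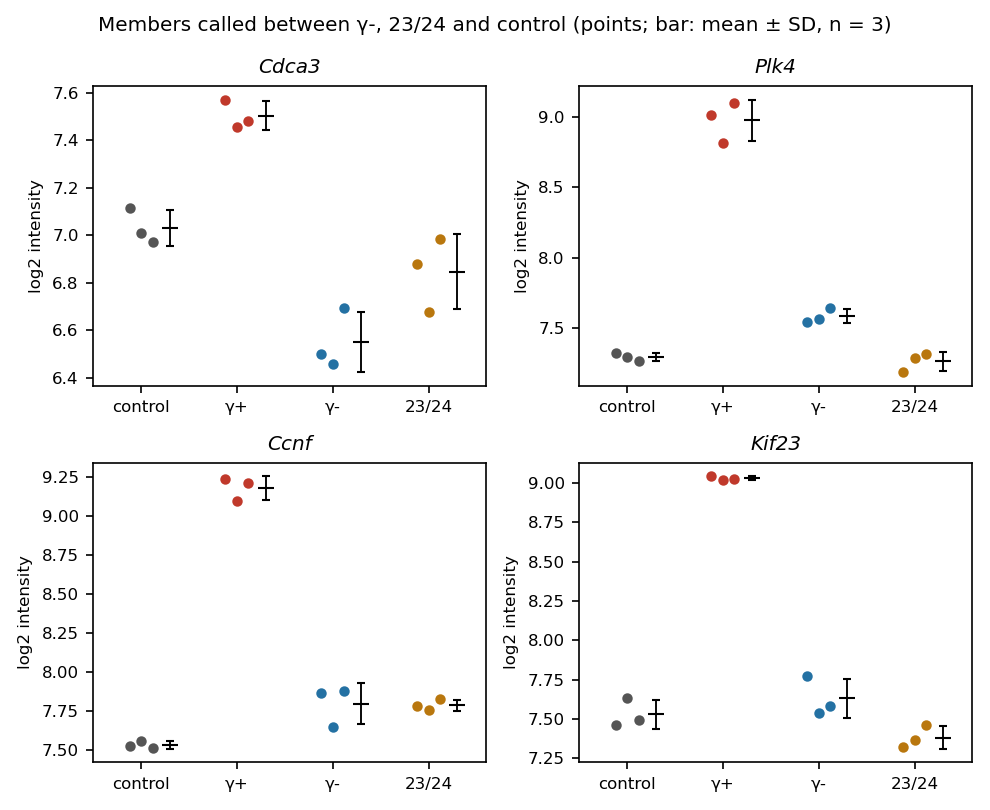
Log2 intensity on each array (points) with the mean ± SD of 3 arrays (bars) for the 4 members called in a comparison of γ- with control or with 23/24. Cdca3 in γ- lies below control, and Plk4, Ccnf and Kif23 in γ- lie far below γ+.

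Other genes of mitosis were taken from a list of 110, of which 77 were measured and 75 passed the filter (Cks2 and Cenpq did not). In γ+ against control 61 of the 75 were called higher and 3 lower by limma, beside 26.2% and 38.7% of all genes, with a median difference of 0.72. All 18 checkpoint and kinetochore genes rose, as did all 10 of chromosome structure and cohesion, 14 of 16 of the spindle and centrosome and 9 of 13 entry regulators. The largest rises were those of the kinetochore gene Ska3 (1.94 ± 0.06, SE), of Gtse1, a microtubule-binding protein of the spindle (1.83 ± 0.10), of Sass6, which founds the centriole cartwheel (1.69 ± 0.10), of the centrosome kinase gene Nek2 (1.69 ± 0.07) and of the inner kinetochore gene Cenpt (1.62 ± 0.08).

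The 14 genes listed under the anaphase-promoting complex were subunits together with Fbxo5, Fzr1 and Ube2s, which are not core subunits. Of these 14, 9 rose and 1 fell in γ+ against control, with a median of 0.32, beside 26.2% and 38.7% of all genes. The largest difference was that of Fbxo5, from a mean of 6.84 to 8.34. The scaffold subunit gene Anapc2 fell, from 7.54, 7.55 and 7.64 to 7.23, 6.97 and 7.34 (-0.40 ± 0.09, SE, limma adjusted p = 0.00129). Of the 4 other cytokinesis genes 1 rose and 2 fell, which is too few genes to set apart from these shares of all genes. Rhoa, the GTPase of the furrow, differed by -0.29 ± 0.07 (limma adjusted p = 0.00169). Cit, citron kinase, differed by -0.18 ± 0.08 (limma adjusted p = 0.0495), with overlapping arrays, and lost its call under median centring and quantile normalization. In γ- against control 0 of the 75 were called higher and 2 lower, Oip5, which loads CENP-A (-0.39 ± 0.10, limma adjusted p = 0.0362), and the kinesin gene Kif3b (-0.29 ± 0.08, limma adjusted p = 0.0484), beside 3.06% and 3.88% of all genes. At an unadjusted p under 0.05 there were 5 higher and 7 lower, beside 22.8% of all genes in either direction. Both calls were lost without each of the 6 arrays in turn, and 0 were called under median centring. In 23/24 against control 0 of the 75 were called by limma in either direction. At an unadjusted p under 0.05 there were 1 higher and 5 lower, beside 9% of all genes in either direction.

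Cell type markers moved in the other direction in γ+. All 10 cardiomyocyte markers fell against control by limma, from means of 12.02 to 12.07 on the control arrays to 10.85 to 10.86, and all 10 fibroblast markers fell, from 9.93 to 9.94 down to 8.55 to 8.71. All 6 smooth muscle and 7 endothelial markers fell, and 4 of 6 macrophage or leukocyte markers. Of all genes 38.7% were called lower in this comparison and 26.2% higher. Of 9 reference genes of general cell upkeep, 2 rose and 6 fell (median -0.17), beside the same shares of all genes. Under quantile normalization 3 rose and 2 fell, beside 3132 and 3398 of all genes. In γ- against control 1 cardiomyocyte marker, Myh6, rose and 0 fell, and of the other lists 3 macrophage or leukocyte markers fell, 2 endothelial, 1 fibroblast and 1 smooth muscle. There 3.06% of all genes were called higher and 3.88% lower. In 23/24 0 of the 39 markers tested were called. The part of these shifts in the members' rise was not tested.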

How the data were processed

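Per the submitters' processing notes, MAS5 was used, with no version. The deposited values, on a log2 scale by their range (1.09 to 13.89), were used as given. How background was corrected, arrays normalized and logs taken is not given in the labels used here. Of 28826 probe sets, 15209 had 1 gene symbol, 306 several and 13311 none in the platform table, and 15178 were matched to RefSeq (GRCr8) by Entrez identifier.

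Probe sets with a mean above the 40th percentile (log2 4.78) were kept (17295), the brightest single-gene one per gene (10025 genes). Tests used R 4.3.3 with limma 3.58.1 (lmFit, eBayes with an intensity trend, 4 group means, 12 arrays, 8 residual degrees of freedom), two-sided, with Benjamini-Hochberg adjustment within each of 6 comparisons, and called at adjusted p under 0.05. Only 3 arrays per group limit the precision. In data simulated for γ+ against control over 10025 genes, 50 genes were changed at each size, with the same spread in all groups. Recovered were 22% of genes changed by 0.25, 78% by 0.5 and 100% by 1 or 2 (log2). The measured comparison had many more calls (26.2% of all genes higher, 38.7% lower) and a wider spread in γ+ (median SD 0.107, control 0.074). The recovered shares may therefore differ from those in the measured data.

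The members and lists were chosen with earlier results of these data known. Named with array values were Cdk1, Ccnb1, Top2a, Foxm1 and Aurkb, the largest and smallest γ+ difference in each role group, and members called in the other comparisons. Of the other mitotic genes, the 5 largest rises, the falls in γ+ and up to 3 calls in γ- were named. Anapc2's array values and the members unadjusted p alone picked out were added after their values were seen. Mef2c was not analysed here.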

Additional observations from a re-analysis of the deposited data

How the results depend on the processing

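Median centring, quantile normalization, no filter, a filter at the 60th percentile, the average of probe sets, no intensity trend, array weights, a replicate block, the 6 arrays compared alone and leaving out each array in turn were tried. All 49 members stayed called higher in γ+ against control, γ- and 23/24 in each of the 15 refits per comparison (735 member results). The lowest differences were 0.41, 0.40 and 0.42. No result reversed. Members called higher in γ- against control (2) became 1 under median centring, 4 with array weights, 4 with the 6 arrays alone and 0 to 1 without single arrays. In 23/24 against control, array weights gave 1 higher and 1 lower in place of 0 and 0. In γ- against 23/24, the 2 higher became 3 under median centring and with the 6 arrays alone (Spc25 added), and 1 without the intensity trend. They became 7 with array weights, 1 with the replicate block and 0 to 2 without single arrays. The 1 lower became 0 under median centring and under the 60th percentile filter, 3 with array weights and 0 to 1 without single arrays. Array weights added calls here but also lost 1 of the main ones. Same-numbered arrays' deviations correlated at -0.22 to 0.12 and differently numbered ones at -0.23 to 0.26. No pairing by number was seen, though this does not exclude a shared cell isolation. The replicate block changed no other count of members. Among all genes, median centring moved the share of higher calls from 40.4% to 51.2% in γ+ against control, from 42.5% to 58.5% in γ+ against 23/24 and from 51.4% to 77.9% in γ- against 23/24. In γ+ against 23/24 it moved the median of all genes from -0.07 to 0.07 and that of the members from 1.24 to 1.38.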

Other observations

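Some members of the same complex rose by unequal amounts in γ+, and for others the arrays did not separate. The 5 pairs were chosen after their values were seen, so they are given as a description with no test. The difference between Bub1 and Bub3 on the same array was 1.06 wider in γ+ than in control, that between Aurkb and Cdca8 0.81 wider and that between Kif23 and Racgap1 0.78 wider, each without overlap between the groups. For Ndc80 against Nuf2 the change was 0.13 and for Smc4 against Smc2 it was 0.08, with overlapping arrays.

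Ccnb2 was the member with more than 1 probe set. The second probe set rose by 1.40 in γ+, beside 1.41 for the one used. It read 8.57, 8.65 and 7.71 on the control arrays, where the probe set used read 8.53, 8.57 and 8.52.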
